A study of Homo sapiens with 2 samples.

Results

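The genes described here are 38 neighbours of ABCB1 on chromosome 7q21, named in the array annotation and taken in chromosomal order from SEMA3C to SDHAF3. They are 38 of 19775 gene symbols on the array and are read by 94 probe sets that pair with 1 symbol each. They were chosen from a stretch in which signals stood higher on these same arrays, so every count and difference over them is a description and none was tested. The question was which neighbours share the higher signal around ABCB1 and which do not.

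RNA came from PLC/PRF/5, an established human hepatocellular carcinoma line, and was hybridised to 2 Affymetrix arrays. One array held chemoresistant hepatospheres, which are tumour spheroids treated with cisplatin, a DNA-crosslinking platinum drug, and doxorubicin, an anthracycline acting on topoisomerase II. Differentiated cells were on the second array and were made by giving spheroids fetal bovine serum (FBS) and letting them attach. Growth as spheroids, serum and attachment differed together, and whether cells of the differentiated culture ever met the drugs is not in the labels. Each group was 1 array with no replicate, so values are given without errors or p-values, and precision is limited by the number of arrays.

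ABCB1 encodes P-glycoprotein, a membrane pump that exports doxorubicin and many other drugs. In drug-selected cell lines the chromosomal stretch around it is known to be amplified in some cases, with neighbours such as SRI carried along. SRI encodes sorcin, a calcium-binding protein known from multidrug-resistant cells. DNA copy number was not measured here.

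Each probe set has 1 MAS5 signal, a linear measure of brightness, and a gene is read from the probe set whose log2 signals have the highest mean. A difference is log2 signal in hepatospheres minus log2 signal in differentiated cells. Signals below a floor of 84.1, the higher of the arrays' median signals, were set to the floor, so that a gene below it on 1 array has only a bound, written "at least". In bulk RNA, fewer cells of a type and less RNA per cell cannot be told apart.

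Both arrays had a trimmed mean signal of 500.1, and the median difference over 12766 measured genes was 0.05. The 24 probe sets of the poly(A) control RNAs read higher in hepatospheres by a median of 2.04-fold. The ACTB 3' to 5' signal ratio was 2.64 in hepatospheres and 1.48 in differentiated cells. All 12 hepatocyte-lineage markers on the array were at or above the floor on both arrays, and went both ways, with albumin (ALB) at 27887 in hepatospheres and 10276 in differentiated cells and the oncofetal AFP at 433 in hepatospheres and 2451 in differentiated cells. APOA1, KRT8 and KRT18 were also lower in hepatospheres. Of 5 fibroblast markers, 4 were at or above the floor in hepatospheres and 1 in differentiated cells, with summed signals of 4032 and 421. Endothelial markers had 1 of 4 at or above the floor on each array, with summed signals of 3854 in hepatospheres and 3452 in differentiated cells. Leukocyte markers had 1 of 4 in hepatospheres and 0 of 4 in differentiated cells, with summed signals of 190 and 142, and the one that reached the floor was CSF1R, at 97.7 in hepatospheres and 10.1 in differentiated cells. PTPRC, which marks all leukocytes, read 4.38 in hepatospheres and 25.1 in differentiated cells. No marker read exactly 0. The part of control RNA, RNA quality or marker genes in the values that follow was not tested.

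The promoter windows of 5 members are shown because they stand for both kinds of neighbour: RUNDC3B, STEAP1 and CLDN12, which were 10.0-fold, 3.64-fold and 3.95-fold higher in hepatospheres, and CROT and DBF4, which stood slightly below 0. Each runs 5′ to 3′ from 250 bases before to 50 bases after the annotated start, is credited to RefSeq with build GRCh38.p14, and has its CpG dinucleotides in capitals.
RUNDC3B, chr7:87628148-87628447, plus strand: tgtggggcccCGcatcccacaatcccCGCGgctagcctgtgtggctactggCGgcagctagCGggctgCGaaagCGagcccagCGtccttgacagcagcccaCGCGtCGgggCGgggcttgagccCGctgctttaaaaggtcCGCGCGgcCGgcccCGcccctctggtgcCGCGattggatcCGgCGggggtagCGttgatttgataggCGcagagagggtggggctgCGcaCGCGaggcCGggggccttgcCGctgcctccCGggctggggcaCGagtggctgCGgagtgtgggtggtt
STEAP1, chr7:90154219-90154518, plus strand: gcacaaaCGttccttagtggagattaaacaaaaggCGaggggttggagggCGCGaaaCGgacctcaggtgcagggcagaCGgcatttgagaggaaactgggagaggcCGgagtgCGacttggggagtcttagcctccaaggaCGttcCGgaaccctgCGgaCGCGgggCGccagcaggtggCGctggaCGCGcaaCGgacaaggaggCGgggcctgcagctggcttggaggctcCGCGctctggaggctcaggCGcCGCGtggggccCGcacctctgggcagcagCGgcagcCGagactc
CLDN12, chr7:90403211-90403510, plus strand: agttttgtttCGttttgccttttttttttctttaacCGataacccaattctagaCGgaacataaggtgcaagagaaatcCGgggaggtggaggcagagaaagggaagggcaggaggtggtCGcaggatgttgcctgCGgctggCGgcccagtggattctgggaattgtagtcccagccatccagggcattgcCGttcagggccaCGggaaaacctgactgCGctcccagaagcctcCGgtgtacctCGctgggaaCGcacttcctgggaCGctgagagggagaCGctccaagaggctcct
CROT, chr7:87345414-87345713, plus strand: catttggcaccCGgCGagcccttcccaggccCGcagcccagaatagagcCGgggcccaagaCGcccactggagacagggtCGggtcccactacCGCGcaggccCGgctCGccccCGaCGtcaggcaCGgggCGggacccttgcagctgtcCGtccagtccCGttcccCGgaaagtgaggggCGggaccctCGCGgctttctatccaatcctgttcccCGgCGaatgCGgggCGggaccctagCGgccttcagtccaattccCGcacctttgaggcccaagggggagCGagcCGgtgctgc
DBF4, chr7:87876243-87876542, plus strand: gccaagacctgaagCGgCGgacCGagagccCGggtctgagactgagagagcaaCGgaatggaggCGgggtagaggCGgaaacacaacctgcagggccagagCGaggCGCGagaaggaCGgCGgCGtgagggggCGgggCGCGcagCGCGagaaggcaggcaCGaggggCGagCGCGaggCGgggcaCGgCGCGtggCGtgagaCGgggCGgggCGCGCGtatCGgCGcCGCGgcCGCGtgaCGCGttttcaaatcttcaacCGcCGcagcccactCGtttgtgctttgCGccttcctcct

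Of the 38 members, 19 were at least 2-fold higher in hepatospheres, 18 were within 2-fold and 1 was at least 2-fold lower. Over all 12766 measured genes 12.5% were at least 2-fold higher, 8.83% at least 2-fold lower and 78.6% within 2-fold. The members' median difference was 0.99, against 0.05 for all genes, and 29 of 38 lay above 0, where 52.7% of all genes did. Because the members were taken from a stretch of higher signal, this excess is what the choice used. Of the 18 members within 2-fold, 6 lay between 0.5 and 1, while 12 were less than 0.5 from 0 on the log2 scale. Every one of the 38 members was measured on 1 array or both, and 5 of them were below the floor on the other.

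**Figure D1:**
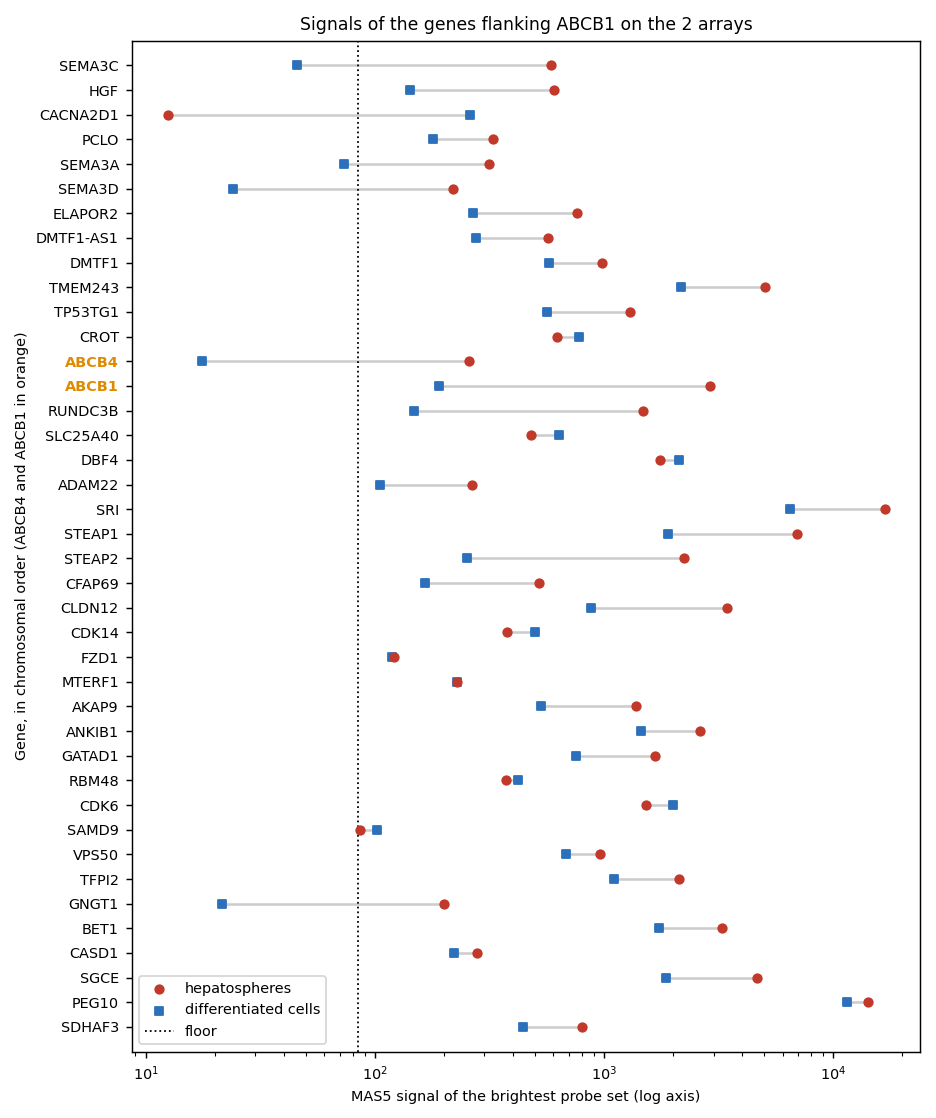
MAS5 signal (log axis) of the brightest probe set of each member and of ABCB4 and ABCB1 in hepatospheres (circles) and differentiated cells (squares), 1 array each, in chromosomal order, with the floor of 84.1 as a dotted line. ABCB1, RUNDC3B and STEAP2 have long connecting lines with hepatospheres to the right, FZD1 and MTERF1 have almost none, and CACNA2D1 is the 1 gene whose long line runs the other way.

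ABCB1 itself, which is the centre of the stretch and no member, read 2888 in hepatospheres and 191 in differentiated cells, 15.1-fold higher. Its dimmer probe set read 223 in hepatospheres and 42.7 in differentiated cells, at least 2.66-fold higher. The adjoining ABCB4, which encodes the phosphatidylcholine exporter of bile canaliculi, read 256 in hepatospheres and 17.6 in differentiated cells, at least 3.04-fold higher. Both centre genes were thus past 2-fold, but ABCB4 was below the floor in differentiated cells and stood at 0.74 under a 60th-percentile floor and at 0.83 under poly(A) scaling.

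The member next to ABCB1, RUNDC3B, a RUN-domain protein gene, read 1475 in hepatospheres and 148 in differentiated cells, a difference of 3.32 and the highest among the members above the floor on both arrays. Its second probe set gave 983 in hepatospheres and 86.3 in differentiated cells, a difference of 3.51, so both probe sets stood about as far apart. RUNDC3B is transcribed from the plus strand and its gene body overlaps that of ABCB1 on the minus strand in GRCh38.p14. Where its probes lie relative to that overlap was not analysed here.

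The next members in that direction did not share this. SLC25A40, the mitochondrial glutathione carrier, read 479 in hepatospheres and 635 in differentiated cells on its brightest probe set, a difference of -0.41. Its other probe set read 582 in hepatospheres and 234 in differentiated cells, 2.49-fold higher, so the direction of SLC25A40 depends on the probe set. DBF4, the activating subunit of the replication kinase CDC7, read 1751 in hepatospheres and 2123 in differentiated cells on its 1 probe set, a difference of -0.28. CROT, the peroxisomal carnitine octanoyltransferase on the far side of ABCB4, read 624 in hepatospheres and 775 in differentiated cells, a difference of -0.31. Its second measured probe set stood at 0.26, and neither was near 2-fold. Members 2-fold higher and members near 0 therefore alternate within a few genes of ABCB1.

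Beyond DBF4, 6 members in a row were at least 2-fold higher, the longest such run of the 9 runs in the list. With a gene's probe sets averaged, the longest run anywhere in the list was 4. It was 5 with the floor at the 60th percentile, with the floor value added, or without shared-sequence probe sets. ADAM22, a catalytically inactive ADAM protein that serves as receptor for the secreted protein LGI1, read 264 in hepatospheres and 105 in differentiated cells, 2.52-fold higher. Its other 3 measured probe sets were below the floor in differentiated cells and stood at least 0.95, 1.62 and 1.79 higher on the log2 scale, and 4 more were below the floor on both arrays. SRI, the sorcin gene, read 16702 in hepatospheres and 6468 in differentiated cells, 2.58-fold higher. A second SRI probe set read 226 in hepatospheres and 243 in differentiated cells, a difference of -0.10, so the higher signal rests on the brighter probe set, whose name marks sequence shared between transcripts.

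The STEAP genes encode metalloreductases of the cell membrane and endosomes. STEAP1 read 6928 in hepatospheres and 1904 in differentiated cells, 3.64-fold higher. STEAP2 read 2236 in hepatospheres and 251 in differentiated cells, 8.92-fold higher, next to RUNDC3B in size among the members above the floor on both arrays. Each has 1 probe set, so no second reading was available. CFAP69, a gene of cilia and flagella, read 519 in hepatospheres and 165 in differentiated cells, 3.15-fold higher, with its other measured probe set at least 2.83-fold higher. CLDN12, a claudin of tight junctions, read 3442 in hepatospheres and 871 in differentiated cells, 3.95-fold higher. The 4 members from STEAP1 to CLDN12 had a median difference of 1.92.

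On the other side of ABCB4, the members from ELAPOR2 to TP53TG1 were higher by smaller amounts. TP53TG1, a long noncoding RNA induced by p53, read 1294 in hepatospheres and 562 in differentiated cells, 2.30-fold higher, and its 3 probe sets ranged from 0.72 to 2.04. TMEM243, which encodes a small membrane protein, read 5003 in hepatospheres and 2162 in differentiated cells, 2.31-fold higher. DMTF1, a Myb-like transcription factor that activates the ARF tumour suppressor, read 974 in hepatospheres and 575 in differentiated cells, a difference of 0.76. Its antisense partner DMTF1-AS1 read 567 in hepatospheres and 277 in differentiated cells, 2.05-fold higher. These 2 genes straddle the 2-fold line by little, and they overlap on opposite strands. ELAPOR2, a transmembrane protein gene, read 758 in hepatospheres and 267 in differentiated cells, 2.84-fold higher, while its dimmer probe set stood at 0.62.

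**Figure D2:**
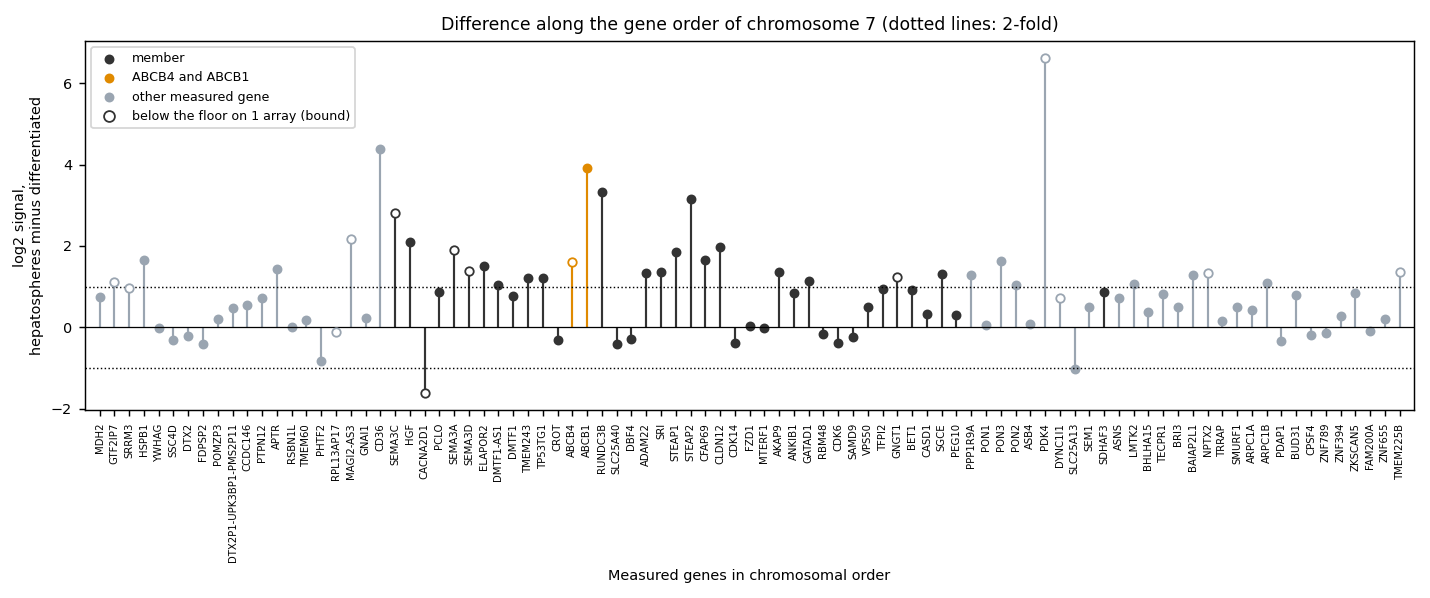
Difference in log2 signal (hepatospheres minus differentiated cells) of each measured gene in the RefSeq gene order of chromosome 7, for the members (dark), ABCB4 and ABCB1 (orange), the other genes between the outermost members and 20 genes on each side (grey). Open circles are bounds and dotted lines mark 2-fold. The members form blocks past the upper line, ending in groups close to 0 at SLC25A40 and DBF4, at CDK14 to MTERF1 and at RBM48 to SAMD9.

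Past CLDN12 came members close to 0. CDK14, a kinase that works with cyclin Y in Wnt signalling, read 378 in hepatospheres and 497 in differentiated cells, a difference of -0.40. One further CDK14 probe set was below the floor in hepatospheres and at least 1.21-fold lower, and another was below it in differentiated cells and at least 1.72-fold higher, so they disagreed in direction. FZD1, a Frizzled receptor for Wnt ligands, read 121 in hepatospheres and 118 in differentiated cells, a difference of 0.03 at a signal not far above the floor. MTERF1, a mitochondrial transcription termination factor, read 227 in hepatospheres and 228 in differentiated cells, a difference of -0.01. The 3 genes had a median of -0.01, in contrast to 1.92 in the 4 members just before them.

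The following 3 members lay above 0 again, and 2 of them passed 2-fold. AKAP9, a scaffold that anchors protein kinase A at the Golgi and centrosome, read 1372 in hepatospheres and 531 in differentiated cells, 2.58-fold higher, and its second measured probe set was 4.03-fold higher. GATAD1, a zinc finger protein of chromatin, read 1659 in hepatospheres and 756 in differentiated cells, 2.19-fold higher, with its other measured probe sets at 0.91 and 0.76. ANKIB1, a member of the RBR family of ubiquitin ligases, read 2606 in hepatospheres and 1446 in differentiated cells, a difference of 0.85. All 3 measured ANKIB1 probe sets lay above 0, and 1 of them passed 2-fold at 2.39-fold higher.

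From RBM48 to VPS50 the members were near 0 or below. CDK6, the cyclin D-dependent kinase that phosphorylates RB1, read 1514 in hepatospheres and 1990 in differentiated cells, a difference of -0.39. Of its 4 measured probe sets 2 lay below 0 and 2 above, between -0.39 and 0.54. RBM48, a protein of minor intron splicing, read 372 in hepatospheres and 419 in differentiated cells, a difference of -0.17. SAMD9, an interferon-linked antiviral factor, read 86.3 in hepatospheres and 102 in differentiated cells, little above the floor on either array. VPS50, a subunit of an endosomal tethering complex, read 961 in hepatospheres and 680 in differentiated cells, a difference of 0.50. These 4 members had a median of -0.21.

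The last 7 members all lay above 0, with a median of 0.92, and 2 of them passed 2-fold. SGCE, which encodes epsilon-sarcoglycan and is expressed from the paternal allele, read 4630 in hepatospheres and 1865 in differentiated cells, 2.48-fold higher. PEG10, a retrotransposon-derived gene that is also paternally expressed and lies beside SGCE, read 14086 in hepatospheres and 11494 in differentiated cells, a difference of 0.29. Its second probe set stood at 0.23, so these imprinted neighbours differed in size on the arrays. GNGT1, the gamma subunit of the photoreceptor G protein transducin, read 199 in hepatospheres and 21.5 in differentiated cells, at least 2.37-fold higher. TFPI2, a Kunitz-type inhibitor of serine proteases, read 2121 in hepatospheres and 1106 in differentiated cells, a difference of 0.94, with its other probe set 2.60-fold higher. BET1, a SNARE of transport between endoplasmic reticulum and Golgi, read 3273 in hepatospheres and 1736 in differentiated cells, a difference of 0.92. SDHAF3, an assembly factor of succinate dehydrogenase, read 797 in hepatospheres and 440 in differentiated cells, a difference of 0.86. CASD1, which acetylates sialic acids, read 278 in hepatospheres and 221 in differentiated cells, a difference of 0.33.

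At the opposite end of the stretch stand secreted ligands, most of them below the floor in differentiated cells. SEMA3C, SEMA3A and SEMA3D are class 3 semaphorins, secreted cues that act through neuropilins and plexins. SEMA3C read 585 in hepatospheres and 45.5 in differentiated cells, at least 6.96-fold higher. SEMA3A read 315 in hepatospheres and 72.9 in differentiated cells, at least 3.75-fold higher. SEMA3D read 219 in hepatospheres and 24.1 in differentiated cells, at least 2.60-fold higher. For each of the 3 genes the remaining probe sets were below the floor on both arrays, so each bound rests on 1 probe set.

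HGF, the ligand of the receptor MET and a growth factor made mainly by mesenchymal cells in liver, read 604 in hepatospheres and 142 in differentiated cells, 4.25-fold higher. All 5 HGF probe sets lay above 0, and 3 of them passed 2-fold. A second one above the floor on both arrays stood at 1.12, and the 3 below it in differentiated cells stood at least 0.76, 0.87 and 2.07 higher on the log2 scale. The fibroblast markers given above were also higher in sum, with LUM at 2677 in hepatospheres and 1.14 in differentiated cells, and their part in the HGF signal was not tested. PCLO, a scaffold of presynaptic active zones, read 327 in hepatospheres and 179 in differentiated cells, a difference of 0.87. CACNA2D1, an accessory subunit of voltage-gated calcium channels, went the other way. It read 12.4 in hepatospheres and 260 in differentiated cells, at least 3.09-fold lower, and lies in order between HGF and PCLO, which both lay above 0. Its other probe set was below the floor on both arrays.

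Probe sets set a limit to how finely the members can be sorted. Across the array, 5206 genes had at least 2 probe sets above the floor on both arrays, and the gap between the extreme probe sets of a gene had a median of 0.52 and a 90th percentile of 1.44 on the log2 scale. Of these genes 35.5% had probe sets on both sides of 0. Of the 94 member probe sets 69 reached the floor on at least 1 array, 30 of them were at least 2-fold higher and 1 at least 2-fold lower. Over all 23825 measured probe sets 11.6% were at least 2-fold higher and 9.59% lower. Of 19 members with 2 or more measured probe sets, 12 had all of them above 0 and 7 had them on both sides. Those 7 were CROT, SLC25A40, SRI, CDK14, RBM48, CDK6 and VPS50, of which SRI alone was counted as higher. Among the 19 higher members, 13 had every measured probe set at least 2-fold higher, and 3 of these, RUNDC3B, CFAP69 and AKAP9, had more than 1 measured.

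**Figure D3:**
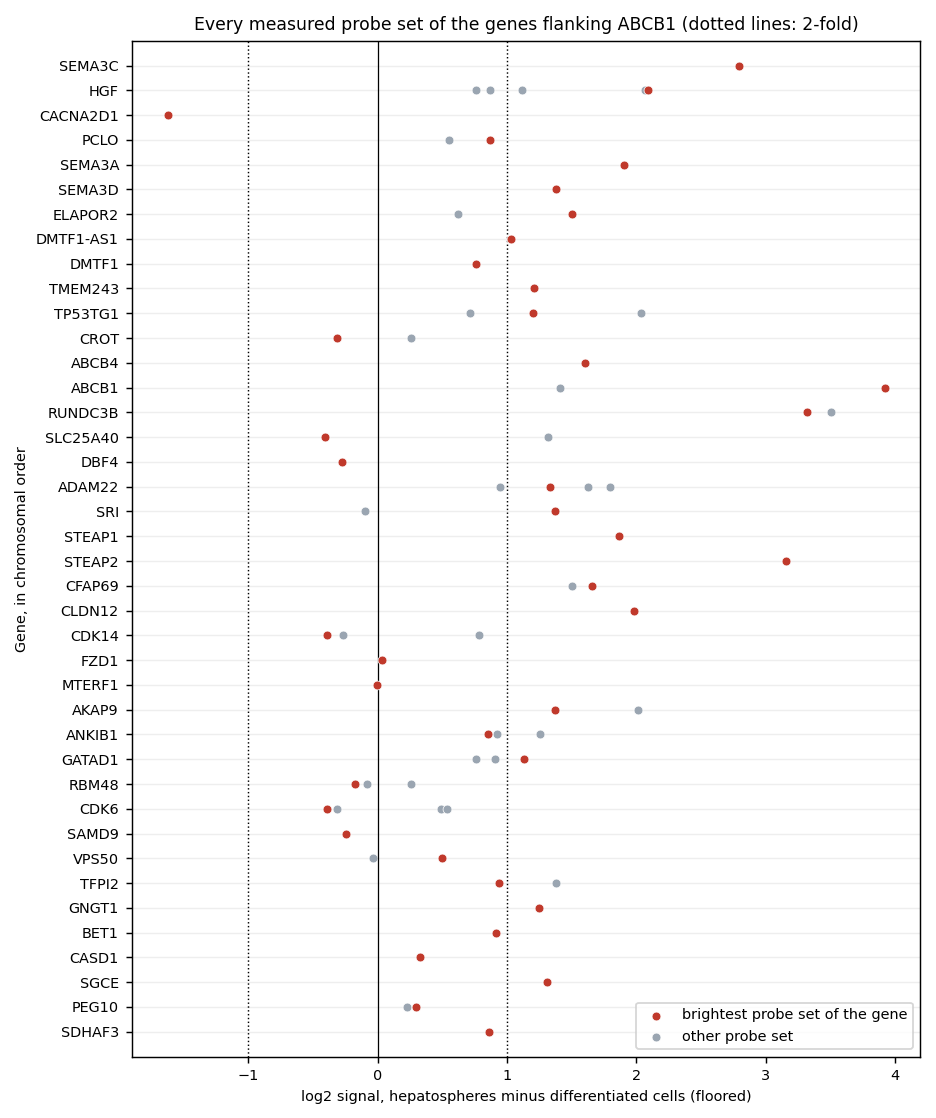
Difference in log2 signal (hepatospheres minus differentiated cells) of every measured probe set of each member and of ABCB4 and ABCB1, with the brightest probe set of a gene in red, the others in grey, and dotted lines at 2-fold. The 2 RUNDC3B probe sets sit together at 3.32 and 3.51, while those of SLC25A40 stand apart at -0.41 and 1.32 and those of SRI at 1.37 and -0.10.

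The higher signals were not limited to dim probe sets. Of 10 members that read 1000 or more on both arrays, 4 were at least 2-fold higher and 0 lower, with a median of 0.93. Of 4392 genes that bright across the array, 7.19% were at least 2-fold higher and the median was -0.06. With 1 array a group neither value was tested, and the members' share is part of what chose them. Leaving out the 5 members with only a bound, 15 of 33 were at least 2-fold higher, with a median of 0.92. Over all 12766 measured genes, 1703 of them with only a bound, 12.5% were at least 2-fold higher. The share without those bounds was not computed.

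Genes outside the list help to place its ends. Between the outermost members 67 genes were on the array, of which 18 were below the floor on both arrays and 9 were measured but are neither members nor centre genes. Those 9 had a median of 0.73, with 4 at least 2-fold higher and 1 lower, where 12.5% and 8.83% of all measured genes were. PDK4, a kinase that restrains pyruvate dehydrogenase, read 8343 in hepatospheres and 62.3 in differentiated cells, at least 99.2-fold higher. The paraoxonase genes PON3 and PON2 were 3.10-fold and 2.05-fold higher, PPP1R9A was 2.45-fold higher, and DYNC1I1 stood at 0.73 as a bound. SLC25A13, the mitochondrial aspartate-glutamate carrier, read 1705 in hepatospheres and 3457 in differentiated cells, 2.03-fold lower.

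Just outside the list, the fatty acid receptor CD36, next to SEMA3C, read 2392 in hepatospheres and 115 in differentiated cells, 20.8-fold higher. ASNS, the asparagine synthetase gene next to SDHAF3, read 11917 in hepatospheres and 7265 in differentiated cells, a difference of 0.71. The 20 measured genes before SEMA3C had a median of 0.35 with 5 at least 2-fold higher, and the 20 after SDHAF3 a median of 0.49 with 5 higher. The remaining 556 measured genes of chromosome 7 had a median of 0.22, and 17.3% were at least 2-fold higher. The members at 0.99 therefore stood above a chromosome whose other genes were themselves slightly above the array median of 0.05.

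Relatives and functional partners of the members coded elsewhere were taken as a set for comparison. The lists held 124 genes on the array outside the stretch, of which 107 were measured. Of these 22 were at least 2-fold higher, 74 within 2-fold and 11 lower, with a median of 0.12. The higher ones made up 20.6% of the set, beside 12.5% of all measured genes. The lists were written with earlier results of these arrays known, and no difference between them and the members was tested.

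For several members the closest relatives read otherwise than the member did. The 6 measured penta-EF-hand relatives of SRI were all within 2-fold, between -0.56 for the calpain gene CAPN2 and 0.23 for GCA. STEAP3 read 735 in hepatospheres and 781 in differentiated cells, a difference of -0.09, beside 1.86 and 3.16 for STEAP1 and STEAP2. The RUNDC3B relatives RUNDC3A and RUNDC1 stood at 0.70 as a bound and at -0.24. All 3 MTERF1 relatives were lower by amounts within 2-fold, from -0.68 to -0.98, while MTERF1 stood at -0.01. The 4 measured genes listed beside VPS50 (VPS51, VPS52, VPS53 and VPS54) lay between -0.66 and -0.19, against 0.50 for VPS50. Of 8 AKAP9 relatives and partners, AKAP11 was 2.58-fold and PRKAR2B 2.48-fold higher, AKAP1 was 2.05-fold lower and 5 were within 2-fold.

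Other relatives lay on both sides of 0. Of 8 measured semaphorin receptors and relatives, PLXNA3 was at least 3.77-fold higher, whereas PLXNA1 and NRP1, which bind class 3 semaphorins as receptor and co-receptor, were 2.99-fold and 2.74-fold lower. The HGF receptor MET read 5767 in hepatospheres and 3762 in differentiated cells, a difference of 0.62. The HGF-related ligand MST1 was 8.17-fold higher, and the protease HPN and the inhibitor SPINT2 were 2.60-fold and 3.23-fold higher. TFPI, the nearest relative of TFPI2, was 2.72-fold higher. CLDN4 was 9.90-fold higher and CLDN1 2.20-fold lower beside CLDN12. LRP5, a Wnt co-receptor, was 4.92-fold higher and FZD2 2.34-fold higher, beside 0.03 for FZD1.

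Partners of the cell cycle members CDK6 and DBF4 went both ways. CDK4, the paralogue of CDK6, read 2712 in hepatospheres and 10640 in differentiated cells, 3.92-fold lower. Cyclins CCND3 and CCND1 were 5.02-fold and 2.24-fold lower, and RB1 was 2.08-fold higher. The inhibitors were divided. CDKN1A, CDKN2B and CDKN2D were 9.58-fold, 8.52-fold and 2.81-fold higher. The brighter CDKN2A and CDKN1B stood slightly below 0, at -0.21 and -0.35. CDC7, the kinase that DBF4 activates, read 619 in hepatospheres and 1659 in differentiated cells, 2.68-fold lower. CDK6 at -0.39 and DBF4 at -0.28 were thus lower by less than CDK4 and CDC7. CDK17 was 2.29-fold lower and CDK18 at least 3.87-fold higher beside CDK14.

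**Figure D4:**
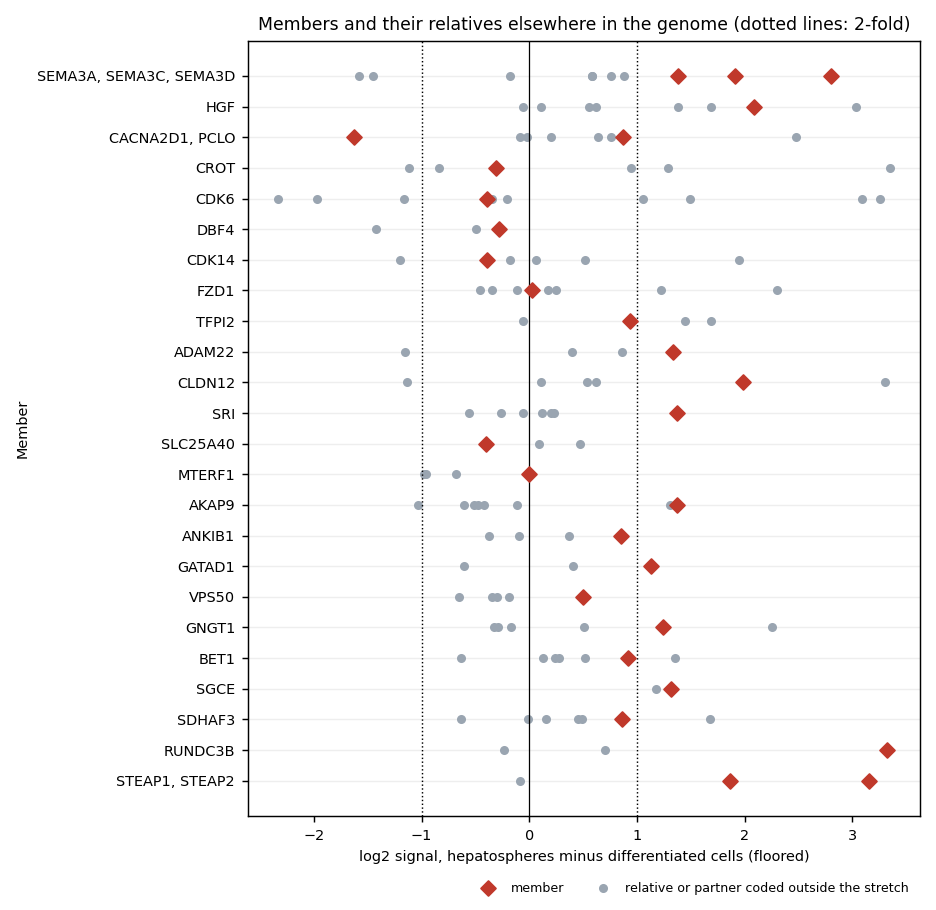
Difference in log2 signal (hepatospheres minus differentiated cells) of members (red diamonds) and of the measured relatives or partners listed for them outside the stretch (grey circles), 1 row for each list, with dotted lines at 2-fold. The diamonds of RUNDC3B, SRI, STEAP1 and STEAP2 lie to the right of all circles in their rows, and so do those of DBF4, MTERF1 and VPS50, which were within 2-fold. Those of CROT, CDK6, CDK14 and FZD1 lie among the circles, as do those of the higher members HGF, CLDN12 and GNGT1.

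Set beside CROT were 5 measured genes, of carnitine acyltransferases and of the carnitine-acylcarnitine carrier SLC25A20. Of them, CPT1C was 10.2-fold and CRAT 2.45-fold higher and CPT1A 2.17-fold lower. CACNB3 was 5.56-fold higher among 6 measured relatives of CACNA2D1 and PCLO, and ADAM23 was at least 2.22-fold lower among 3 of ADAM22. GNG7 was 4.76-fold higher among 5 measured relatives of GNGT1, and GOSR2 2.56-fold higher among 6 partners of BET1. SGCB, the 1 measured partner of SGCE, was 2.27-fold higher, and SDHAF4 was 3.21-fold higher among 6 partners of SDHAF3. All measured relatives of ANKIB1, GATAD1 and SLC25A40 were within 2-fold.

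Promoter windows from RefSeq were matched for 34 of the 38 members, 44 windows in all, since 9 members have several annotated starts. For the counts per gene, the windows of a gene with several starts were averaged. On that basis, the 17 higher members had a median of 19 CpG dinucleotides per 300 bases, from 2 to 32. The 16 members within 2-fold had a median of 26.5, from 3.5 to 47, and all 10375 measured genes in the table a median of 25. CACNA2D1, the lower member, had 29. SEMA3A, RBM48, SGCE and PEG10 were not matched. Single windows of 1 gene can differ widely: the 2 windows of SEMA3C held 2 and 46 CpGs, those of ELAPOR2 45 and 2, and those of SRI 0 and 37. Within 2-fold, those of CDK14 held 2 and 5 and those of CDK6 37 and 29. The lower median of the higher members therefore depends on how starts are combined, and other ways were not tried. The median ratio of observed to expected CpG, averaged likewise, was 0.65 in higher members, 0.80 in members within 2-fold and 0.81 over all measured genes. The ranges overlap widely, and the windows above hold 32 CpGs for RUNDC3B, 27 for STEAP1 and 15 for CLDN12, against 28 for CROT and 44 for DBF4. A window of CpG-rich sequence was thus found on both sides.

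Sequence words were counted on both strands. CCAAT was in 12 of 25 windows of higher members and in 4 of 18 windows of members within 2-fold, and 35.1% of 14934 windows of measured genes hold it. Windows of 1 gene can overlap. Per gene, 10 of 17 higher members and 4 of 16 within 2-fold had the word, against 4487 of 10375 measured genes. TATAAA was in 3 windows of higher members and 0 of members within 2-fold, and 6.81% of windows of measured genes hold it. The 3 windows with TATAAA belong to SRI, STEAP2 and AKAP9, each of which also has a CpG-rich window without that word. These matches are descriptions of letters in the windows.

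Neighbours that start head to head within 1000 bases did not always read alike. The DBF4 window shown above also holds the start of SLC25A40 on the opposite strand, upstream of that of DBF4, and these 2 genes stood at -0.28 and -0.41 on their brightest probe sets. The CROT window holds the start of TP53TG1, 172 bases before that of CROT, yet TP53TG1 was 2.30-fold higher and CROT stood at -0.31. DMTF1-AS1 and DMTF1 start 136 bases apart and stood at 1.03 and 0.76. On the brightest probe sets, 2 of the 3 pairs of members with adjoining starts thus lay on 1 side of 0 and 1 pair on both. That count depends on the probe set, since the other measured probe sets of SLC25A40 and CROT stood at 1.32 and 0.26.

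The sizes given hold relative to the bulk of genes, as the arrays were scaled. Scaling to the poly(A) controls shifts the median of all genes by -0.97. It leaves 5 of the 38 members (SEMA3C, HGF, SEMA3A, RUNDC3B and STEAP2) at least 2-fold higher and puts 8 at least 2-fold lower. Over the array, 5764 of 12397 measured genes are then at least 2-fold lower. Higher genes then make up 6.47% of all genes 2-fold apart, against 58.7% with the deposited scaling, and 3.22% of all genes are 2-fold higher. The members' median relative to that of all genes was 0.88 under this scaling and 0.94 with the deposited one.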

How the data were processed

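Per the labels' protocols, total RNA was isolated with Trizol and carried a biotin label. The authors deposited intensity values as linear MAS5 signals, a single number for every probe set, and the method's name comes from the submitters' processing notes. No version or target value is stated there. MAS5 subtracts background and applies a global factor to each array, so a difference holds relative to the average signal of the array.

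Source names in the labels gave the groups, 1 array each, so no test was made. Of 54675 probe sets, 62 were controls, 41091 paired with 1 gene symbol in GEO's annotation of the array, 1801 with several (left unnamed) and 11721 had no name here. Of 19775 symbols, 19735 had an identifier in a RefSeq table of GRCh38.p14, which was used for gene order and overlap. The floor was the higher of both arrays' 50th percentiles over probe sets other than controls, and a measured gene is one that reached it on 1 array or both.

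Members, lists and settings were chosen with earlier results of these data known. All members were named, with ABCB1, ABCB4, the 6 non-members furthest from 0 in the stretch and the gene next to each end. At most 4 genes per list of relatives were named beside the closest ones, except in the CDK6 list, where all 9 measured genes were. Other settings tried were centring on the median, quantile normalization, a loess fit (span 0.3), scaling to poly(A) controls, the floor at the 40th or the 60th percentile or left out, log2 after adding the floor value, averaging a gene's probe sets, and leaving out probe sets named _s_at, _x_at or _a_at. The fold count was checked on simulated data. Python 3.11.15, numpy 2.4.6, pandas 2.3.3, statsmodels 0.14.6 and matplotlib 3.10.9 were used.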

Additional observations from a re-analysis of the deposited data

How the results depend on the processing

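Scaling to the poly(A) controls changed most summaries. It gave 5 of 38 members at least 2-fold higher and 8 lower, beside 399 higher and 5764 lower of 12397 measured genes over the array. Medians were -0.043 for the members, -0.27 for the other genes of the stretch and -0.90 for relatives elsewhere. Runs of higher members numbered 4, the longest of 2. The cause of the unequal control signals was not tested. With the floor at the 60th percentile 0 members were lower, because the CACNA2D1 bound shrank to -0.77 on the log2 scale. Under the other 9 alternatives between 16 and 21 members were at least 2-fold higher. Of the 19 higher members, 13 stayed past 2-fold under each of these 9 that gave them a value, and 5 did so with poly(A) scaling included. The members' median minus that of all genes was 0.839 to 0.997 over the 10 alternatives. Of 393 single-gene values under the alternatives, 38 moved by more than 1.5-fold under poly(A) scaling and 21 under the others. SRI changed direction, to -0.10, without shared-sequence probe sets. SLC25A40 stood at 0.46 with the mean over probe sets. Dim signals limit ABCB4, SEMA3D and GNGT1, whose bounds ended at 0.74, 0.52 and 0.38 under the 60th-percentile floor. They also limit ADAM22, which stood at 0.79 under that floor and at 0.88 with the floor value added. No paired analysis was possible because each group had 1 array.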
